A study of Homo sapiens with 30 samples.

Results

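dTAG47 is a compound made to destroy proteins that carry a matching tag, and here its effect was read in parental G401 cells, which carry no tagged protein. The members are 6 of the 30 samples of the series, chosen by their labels: 3 ribosomal-RNA-depleted RNA-seq libraries of parental G401 cells after 24 h in 500 nM dTAG47 and 3 libraries of the same cells after 24 h in DMSO, its solvent. G401 is an established line from a malignant rhabdoid tumour of the kidney. Set beside them are 6 RNA-seq libraries of DTMYC cells, a G401 derivative with its endogenous MYC gene removed by CRISPR-Cas9 and a lentiviral MYC carrying an HA-FKBP12F36V module, 3 in 500 nM dTAG47 and 3 in DMSO for 24 h. Both lines were grown in the same medium, and the labels do not say whether the DTMYC line is 1 clone. The labels do not say either that replicates were separate cultures, so a p-value here reflects the variation among the sequenced libraries and no more.

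dTAG47 has an arm that binds the mutant FKBP12 tag and an arm that binds cereblon, the substrate receptor of a CUL4 ubiquitin ligase, so that a tagged protein is ubiquitinated and degraded by the proteasome. In cells without the tag such a compound can still meet native FK506-binding proteins, cereblon and the proteins that cereblon ligands bring to the ligase. The pathway that stands out below is cholesterol synthesis, which turns acetyl-CoA into cholesterol through mevalonate, squalene and lanosterol, and whose genes are switched on by the transcription factor SREBP2 when sterols are scarce and off when they are plentiful.

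Libraries of parental cells held between 30791296 and 54633745 counts in 18132 gene entries, of which 13401 passed the filter on low counts with all libraries and 13521 without parental DMSO library 3. DMSO library 3 stood apart from the other 5. The root mean square difference of log2 CPM (counts scaled to a common library size) was 0.449 to 0.581 in the 5 pairs that included it and 0.254 to 0.421 in the other 10. The first principal component carried 52.6% of the variance and placed DMSO 3 at 45.6, against values between −18.8 and 6.16 for the other libraries. Across genes, its deviation from the parental mean went with low GC content of the transcript (Pearson r = −0.696), while the other libraries had r between −0.0959 and 0.427. The spread among DMSO libraries therefore rests largely on this library, and results are given with and without it.

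**Figure D1:**
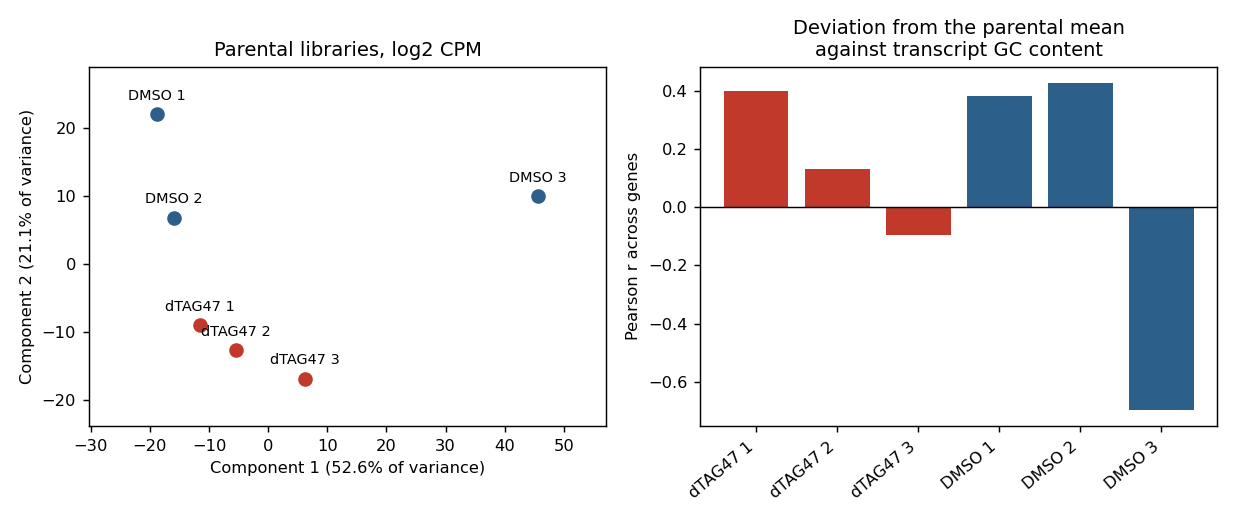
The left panel places the 6 parental libraries on the first and second principal components of log2 CPM, dTAG47 in red and DMSO in blue, and DMSO 3 lies at 45.6 on the first. The right panel gives, for each library, the Pearson r across genes between its deviation from the parental mean and the GC content of the transcript, which was −0.696 in DMSO 3.

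In the main fit of all libraries together few genes were called, and each of them changed modestly. With edgeR's quasi-likelihood test and Benjamini-Hochberg adjustment at 0.05, 14 genes were higher in dTAG47 (0.104% of 13401) and 3 were lower (0.0224%), and none reached 2-fold. The rises ran from 0.40 to 0.99 on the log2 scale and the falls from −0.50 to −0.92. At an unadjusted p under 0.05 there were 2074 genes. For all 17 genes every dTAG47 library lay beyond every DMSO library, as it did above for 8.73% and below for 6.63% of all genes. All 17 were also called without DMSO 3. The 17 were picked by a test of these same libraries, so neither result is separate support for them. In a bulk sample, fewer cells that express a gene and less RNA per cell cannot be told apart.

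**Figure D2:**
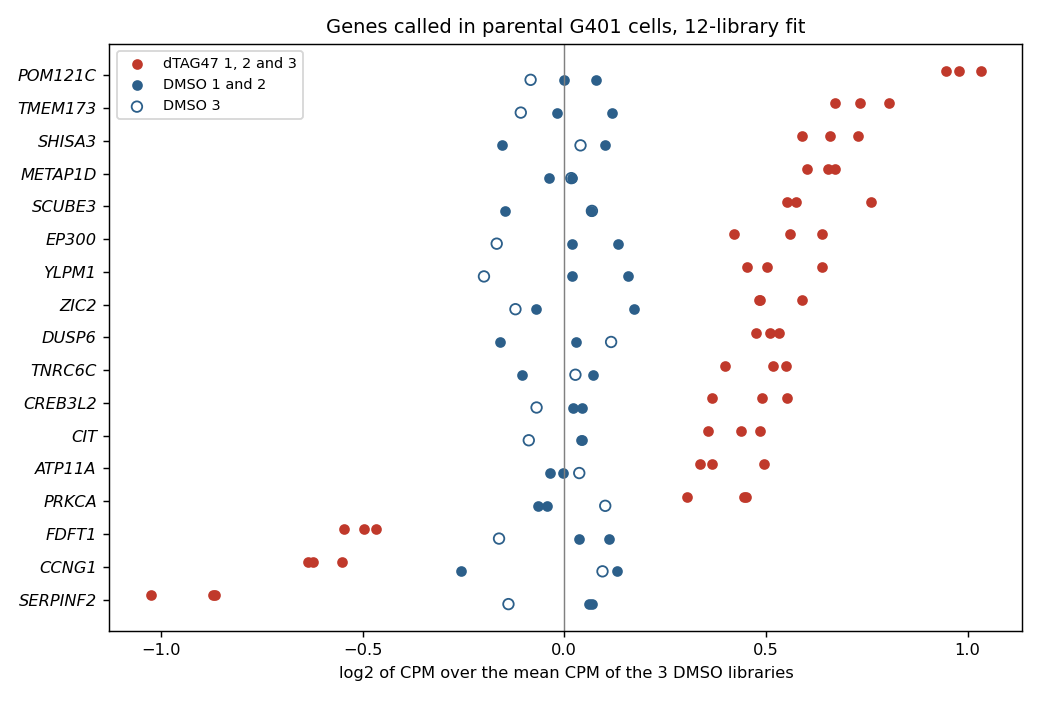
Each row is 1 of the 17 genes called with all 12 libraries, and each point is a parental library, placed by the log2 of its CPM over the mean CPM of the 3 DMSO libraries. The dTAG47 points (red) of POM121C lie near 1 and those of SERPINF2 near −0.9, and no red point falls among the DMSO points (blue, with DMSO 3 open).

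POM121C, which encodes a membrane-anchored nucleoporin of the nuclear pore, had the largest rise. It had 26.4, 25.8 and 27.4 CPM in dTAG47, against 14.1, 13.4 and 12.6 CPM in DMSO (chromosome 7, 75046066 to 75115548 in hg19), a log2 change of 0.99 ± 0.12 (SE) with an edgeR adjusted p of 0.0090. The 3 dTAG47 libraries were close to each other and far above the DMSO libraries. POM121C shares long near-identical stretches with POM121, whose entry had 1.12, 1.22 and 0.725 CPM in dTAG47 and 0.347, 0.86 and 0.468 CPM in DMSO and was not called (adjusted p = 0.236). How reads were split between the copies is not given, so the gene that the reads came from is uncertain.

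TMEM173, which encodes STING, the adaptor of cytosolic DNA sensing, had 10.1, 10.7 and 9.72 CPM in dTAG47 and 6.03, 6.63 and 5.67 CPM in DMSO (chromosome 5, 138855119 to 138862520). The groups did not overlap, and the log2 change was 0.74 ± 0.10 (SE; edgeR adjusted p = 0.0224). SHISA3, of a family that attenuates WNT and FGF signalling, had 121, 115 and 127 CPM in dTAG47 and 68.6, 81.8 and 78.5 CPM in DMSO (chromosome 4, 42399856 to 42404504). DMSO 1 was the lowest of the DMSO libraries here, and the log2 change was 0.66 ± 0.08 (adjusted p = 0.0090). METAP1D, a mitochondrial methionine aminopeptidase, had the smallest adjusted p of all genes, 0.00828. It stood at 35.9, 35.5 and 34.2 CPM in dTAG47 and 21.97, 22.9 and 22.8 CPM in DMSO (chromosome 2, 172864490 to 172947158), with little spread inside either group.

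DUSP6, a phosphatase that switches off ERK and is itself induced by ERK signalling, had 253, 259.6 and 264 CPM in dTAG47 and 163, 186 and 198 CPM in DMSO (log2 change 0.51 ± 0.08, adjusted p = 0.0338). EP300, the p300 histone acetyltransferase, had 237, 261 and 276 CPM in dTAG47 and 179, 194 and 157 CPM in DMSO (log2 change 0.54 ± 0.08, adjusted p = 0.0401). DMSO 3 was the highest DMSO library for DUSP6 and the lowest for EP300. SCUBE3, a secreted EGF-domain glycoprotein, rose by 0.63 on the log2 scale. On the same scale the next 4 rose by 0.53 (YLPM1), 0.52 (ZIC2, a zinc-finger transcription factor), 0.49 (TNRC6C, a scaffold of microRNA silencing) and 0.47 (CREB3L2, a transcription factor anchored in the endoplasmic reticulum). CIT, a kinase of cytokinesis, ATP11A, a phospholipid flippase, and PRKCA, protein kinase C alpha, rose by 0.43, 0.40 and 0.40. The adjusted p of these 8 genes lay between 0.0338 and 0.049.

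Among the 3 genes that fell, SERPINF2, which encodes alpha-2-antiplasmin, the main inhibitor of plasmin, had 4.03, 3.61 and 4.02 CPM in dTAG47 and 7.71, 7.67 and 6.68 CPM in DMSO (chromosome 17, 1646130 to 1658562). The log2 change was −0.92 ± 0.13 (SE; edgeR adjusted p = 0.0224), and DMSO 3 was the DMSO library nearest to dTAG47. CCNG1, cyclin G1, a classical p53 target, had 165, 164 and 174 CPM in dTAG47 and 279, 213 and 272 CPM in DMSO (log2 change −0.60 ± 0.10, adjusted p = 0.0446). DMSO 2 was the DMSO library nearest to dTAG47 for CCNG1. FDFT1, squalene synthase, the first enzyme committed to sterols, had 246, 241 and 233 CPM in dTAG47 and 367, 349 and 304 CPM in DMSO (log2 change −0.50 ± 0.07, adjusted p = 0.0338).

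These 17 calls rest on every treated library. Without dTAG47 library 1, 2 or 3 edgeR called 0 genes (1406, 1370 and 1549 at an unadjusted p under 0.05), and without DMSO 1 it called METAP1D, SHISA3 and POM121C. Without DMSO 2 it called 353, all 17 among them. In a fit of the 6 parental libraries alone it called 0 (881 at an unadjusted p under 0.05). DESeq2 on all 12 libraries, however, called 167 higher and 148 lower, all 17 among them. These are 1.57% and 1.39% of the 10649 genes that it gave an adjusted p. METAP1D overlaps SLC25A12, YLPM1 overlaps PROX2, FDFT1 overlaps RP11-297N6.4 and CIT overlaps RP1-127H14.3 in the annotation, and with no statement that counting used the strand their reads cannot be told apart from those of the partner.

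Without DMSO 3 the picture is broader: 1240 genes were higher in dTAG47 (9.17% of 13521) and 1478 lower (10.9%), 20.1% in all. The median rise among them was 0.35 and the median fall −0.30 on the log2 scale, and 46 of the 2718 reached 2-fold. The common biological coefficient of variation was 0.0606 without DMSO 3 and 0.121 with it. The split between directions moved with the scaling, from 36.8% higher with RLE factors to 59.0% with upper-quartile factors, against 45.6% with TMM, and 38.4% after offsets for GC content and length.

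DMSO 3 took no part in those calls, so its own level can be set beside them. On a scale where 0 is the mean log2 level of DMSO 1 and 2 and 1 that of dTAG47, it had a median position of 1.34 for the genes called higher and 1.16 for those called lower. For 786 of the 2718 genes (28.9%) it lay on the DMSO side of every dTAG47 library. It lay beyond every dTAG47 library for 641 of the 1240 genes called higher (51.7%) and 649 of the 1478 called lower (43.9%). Genes called higher had a median transcript GC content of 45.4% and those called lower 56.6%, against 48.8% over all genes tested.

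**Figure D3:**
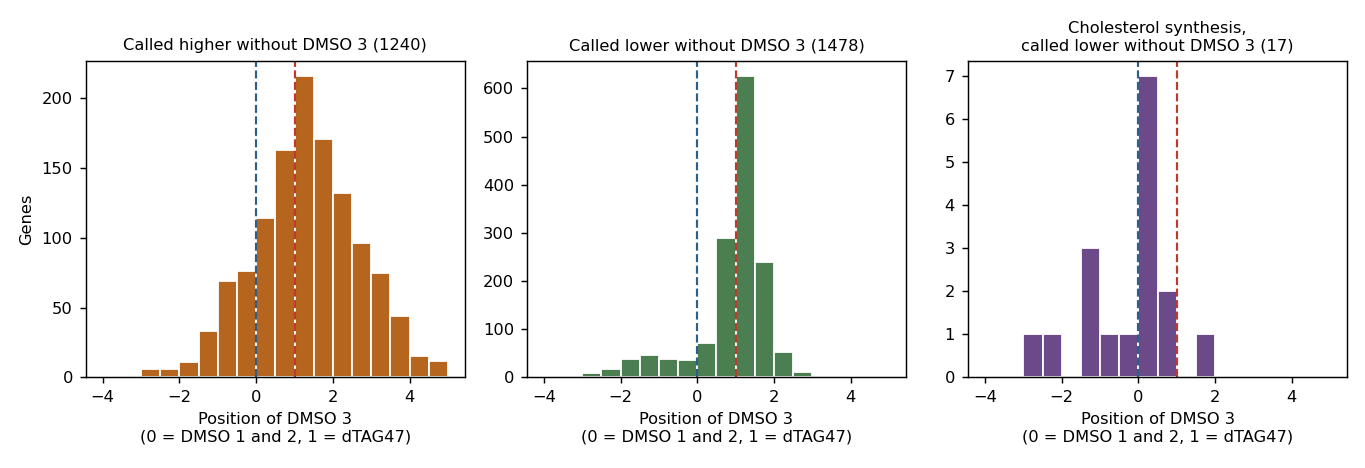
Histograms of the position of DMSO 3 in bins of 0.5, on a scale where 0 (blue line) is the mean of DMSO 1 and 2 and 1 (red line) the mean of dTAG47, for genes called higher, genes called lower and cholesterol synthesis genes called lower without DMSO 3. Values beyond the axis are counted in the end bins. The median is 1.34 in the first panel, 1.16 in the second and 0.359 in the last.

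The largest rises without DMSO 3 among genes of at least 5 CPM included POM121C, and for 6 of the 8 DMSO 3 lay inside or above the treated range. EPHA7, an ephrin receptor, had 17.3, 18.3 and 21.1 CPM in dTAG47 and 8.61, 9.95 and 16.2 CPM in DMSO, a log2 change of 1.01 ± 0.14 without DMSO 3 (adjusted p = 0.000142) and 0.70 ± 0.24 with it (adjusted p = 0.209). DMSO 3 was the highest DMSO library and still below dTAG47. SBF2, a myotubularin-related protein, had 68.4, 74.2 and 83.8 CPM in dTAG47 and 40.3, 46.9 and 84.7 CPM in DMSO, where DMSO 3 exceeded all treated libraries, so that its change of 0.78 ± 0.08 (adjusted p = 2.24e-05) became 0.40 ± 0.21 (adjusted p = 0.367). TMEM2, HIVEP2, MYO3B, FRRS1 and ZBTB43 rose by 0.74 to 0.78 on the log2 scale without DMSO 3, and with it they had log2 changes of 0.16 to 0.42 and were not called. Their DMSO 3 positions lay between 1.18 and 1.83.

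The largest falls, beside SERPINF2, were those of NCCRP1, HES6, HBQ1, KCNH3, TWF2, FAM173A and ENDOG, with log2 changes from −0.79 to −0.68 without DMSO 3. TWF2, twinfilin 2, an actin-binding protein, had 43.5, 45.7 and 41.7 CPM in dTAG47 and 77.8, 63.2 and 50.6 CPM in DMSO (log2 change −0.70 ± 0.08 without DMSO 3, adjusted p = 3.5e-05, and −0.55 ± 0.13 with it, adjusted p = 0.0969). KCNH3, a voltage-gated potassium channel, had 4.18, 3.78 and 3.63 CPM in dTAG47 and 5.95, 6.60 and 6.01 CPM in DMSO, with DMSO 3 next to DMSO 1 (log2 change −0.70 ± 0.14, adjusted p = 0.00215, against −0.67 ± 0.14 and 0.069 with DMSO 3). ENDOG, mitochondrial endonuclease G, had a log2 change of −0.68 without DMSO 3, but DMSO 3 itself, at 26.9 CPM, lay inside the range of the dTAG47 libraries, 27.4, 27.2 and 23.9 CPM.

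Cholesterol synthesis was lower in dTAG47 almost throughout. Of its 22 genes 20 were tested, and 19 had a negative log2 change in each fit, beside 59.1% of all genes with DMSO 3 and 52.3% without it. The median was −0.41 both with and without DMSO 3, beside −0.047 and −0.014 over all genes tested. In all libraries 1 was called lower (FDFT1) and in the fit without DMSO 3 17 were, beside 10.9% of all genes, with none called higher. In 16 of the 20 all treated libraries were below all DMSO libraries, DMSO 3 included, against 6.63% of all genes. Over the called genes the median position of DMSO 3 was 0.359 (quartiles −1.06 and 0.483), and it lay on the DMSO side for 16 of 17, all but PMVK. With all libraries DESeq2, which had no such filter and covered all 22 entries, called 13 lower. It called 1.39% lower of the 10649 genes that it gave an adjusted p. With all libraries edgeR with offsets for GC content and length called 14 of the 20 lower, beside 4.71% of all genes. The list was chosen with its fall in these libraries already known.

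**Figure D4:**
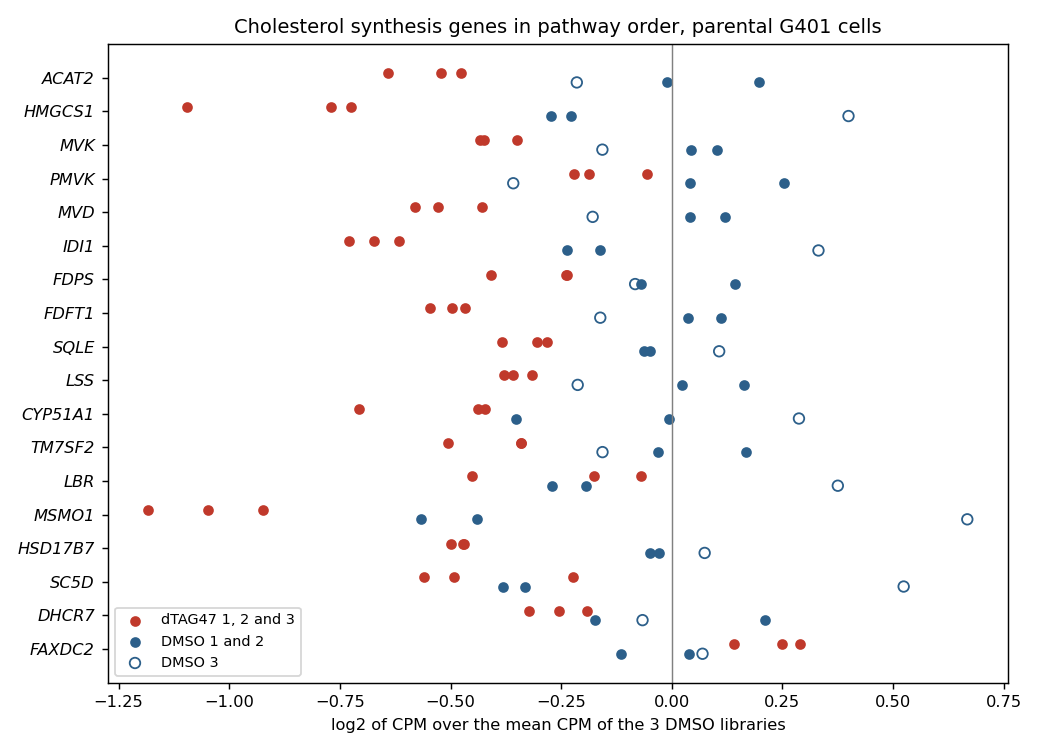
Of the 20 tested cholesterol synthesis genes, 18 from acetyl-CoA (top) to cholesterol (bottom). Each point is a parental library, placed by the log2 of its CPM over the mean CPM of the 3 DMSO libraries, dTAG47 in red and DMSO in blue with DMSO 3 open. In 14 rows the red points all lie left of the blue ones, and FAXDC2 is the row with red points to the right.

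At the entry to the pathway, HMGCS1, which makes HMG-CoA, had 50.1, 62.8 and 64.8 CPM in dTAG47 and 88.5, 91.4 and 141 CPM in DMSO. DMSO 3 was the highest library of all and dTAG47 1 the lowest. The log2 change was −0.62 ± 0.08 (SE) without DMSO 3 (edgeR adjusted p = 0.000134) and −0.86 ± 0.16 with it (adjusted p = 0.0532). ACAT2, the cytosolic thiolase at the first step, had 91.8, 88.98 and 81.8 CPM in dTAG47 and 146, 127 and 110.0 CPM in DMSO, here with DMSO 3 nearest to dTAG47 (log2 change −0.65 ± 0.07 without it, adjusted p = 3.34e-05, and −0.54 ± 0.09 with it, adjusted p = 0.0509). ACAT2 overlaps SOD2 and TCP1 in the annotation, and of the genes named below LSS, ACSS2, PSMA3 and RPS3A also overlap another entry.

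All 5 genes from mevalonate to farnesyl diphosphate were called lower without DMSO 3, with a median of −0.48. MVD, mevalonate diphosphate decarboxylase, had 59.1, 55.1 and 53.1 CPM in dTAG47 and 86.4, 81.8 and 70.2 CPM in DMSO (log2 change −0.60 ± 0.07, adjusted p = 3.5e-05; with DMSO 3 −0.51 ± 0.09, adjusted p = 0.0509). IDI1, isopentenyl diphosphate isomerase, had 40.7, 42.3 and 43.97 CPM in dTAG47 and 57.2, 60.3 and 84.9 CPM in DMSO (log2 change −0.49 ± 0.08, adjusted p = 0.000531). The 3 treated libraries of each were tightly grouped below the lowest DMSO library. MVK, mevalonate kinase, and FDPS, farnesyl diphosphate synthase, fell too, with log2 changes of −0.48 and −0.34. PMVK, phosphomevalonate kinase, had 46.9, 51.4 and 45.8 CPM in dTAG47 and 63.6, 54.9 and 41.6 CPM in DMSO, with DMSO 3 below every treated library. Its log2 change was −0.31 ± 0.08 without DMSO 3 (adjusted p = 0.00912), but it was not called with DMSO 3 (adjusted p = 0.565), nor without it after the GC and length offsets (adjusted p = 0.0719).

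From squalene to lanosterol all 3 genes were called lower without DMSO 3. LSS, lanosterol synthase, had 199, 193 and 190.3 CPM in dTAG47 and 277, 252 and 214 CPM in DMSO (log2 change −0.46 ± 0.06, adjusted p = 0.000192; with DMSO 3 −0.35 ± 0.09, adjusted p = 0.113). SQLE, squalene epoxidase, had 74.5, 78.7 and 79.97 CPM in dTAG47 and 93.01, 93.9 and 105 CPM in DMSO (log2 change −0.28 ± 0.07, adjusted p = 0.00765; with DMSO 3 −0.32 ± 0.08, adjusted p = 0.111). The groups did not overlap for these enzymes nor for FDFT1, whose log2 change without DMSO 3 was −0.59.

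From lanosterol to cholesterol 6 of the 9 tested genes were called lower without DMSO 3. MSMO1, the sterol C4 methyl oxidase, had 12.7, 13.9 and 15.2 CPM in dTAG47 and 21.2, 19.4 and 45.8 CPM in DMSO. DMSO 3 was more than double either of the other DMSO libraries, and the log2 change was −0.56 ± 0.11 without it (adjusted p = 0.00158) and −1.05 ± 0.26 with it (adjusted p = 0.112). HSD17B7, the 3-ketosteroid reductase, was even within groups, at 7.94, 7.92 and 7.78 CPM in dTAG47 and 10.8, 10.6 and 11.6 CPM in DMSO (log2 change −0.45 ± 0.11, adjusted p = 0.00593). TM7SF2, a sterol C14 reductase, CYP51A1, lanosterol demethylase, and DHCR7, which makes cholesterol from its 7-dehydro precursor, had log2 changes of −0.47, −0.36 and −0.30 without DMSO 3. DHCR7 came closest to overlap among the called genes of this stretch, at 166, 152 and 159 CPM in dTAG47 and 168, 219.8 and 181 CPM in DMSO. LBR, which joins sterol C14 reduction to a role in the nuclear envelope, and SC5D, a sterol desaturase, were not called, with log2 changes of −0.01 (95% interval −0.20 to 0.18) and −0.08 (−0.32 to 0.15). FAXDC2 had a log2 change of 0.25 (0.02 to 0.48) and was not called either. EBP and NSDHL did not pass the filter, with entries at or near 0 in all 6 libraries, the NSDHL entry lying on a patch contig.

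The promoters of these genes were looked at because the genes moved together. SREBP2 binds sterol elements such as TCACNCCAC, usually beside CCAAT boxes bound by NF-Y. Promoters of 17 of the 22 genes were matched in RefSeq (GRCh38.p14), each 300 bases around the start of the gene. TCACNCCAC on either strand was in 0 of the 17, against 1.15% of 27305 promoters, which says only that these letters are not in these windows. CCAAT on either strand was in 12 of 17 (70.6%, 95% interval 44.04 to 89.7, Clopper-Pearson), against 35.7% of all promoters. On the strand of the gene alone it was in 35.3% (95% interval 14.2 to 61.7), against 20.8% of all. The set of all promoters was not limited to genes expressed in these cells. The 3 genes with the smallest adjusted p and a CCAAT match are shown as the 250 bases before the start, on the strand of the gene, with CCAAT or its reverse complement in capitals. They were picked by CCAAT after the sterol letters had given no match.
MVD, chr16:88663092-88663341, minus strand: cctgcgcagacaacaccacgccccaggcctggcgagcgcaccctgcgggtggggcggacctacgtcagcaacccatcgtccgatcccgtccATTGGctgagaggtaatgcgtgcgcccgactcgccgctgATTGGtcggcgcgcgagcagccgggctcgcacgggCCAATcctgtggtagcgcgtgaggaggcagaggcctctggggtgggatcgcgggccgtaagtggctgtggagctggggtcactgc
HMGCS1, chr5:43313413-43313662, minus strand: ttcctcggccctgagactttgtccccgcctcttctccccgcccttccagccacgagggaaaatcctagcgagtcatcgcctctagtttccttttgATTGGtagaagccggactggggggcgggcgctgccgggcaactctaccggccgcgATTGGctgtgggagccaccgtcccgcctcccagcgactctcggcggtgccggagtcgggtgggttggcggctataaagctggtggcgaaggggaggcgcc
LSS, chr21:46228775-46229024, minus strand: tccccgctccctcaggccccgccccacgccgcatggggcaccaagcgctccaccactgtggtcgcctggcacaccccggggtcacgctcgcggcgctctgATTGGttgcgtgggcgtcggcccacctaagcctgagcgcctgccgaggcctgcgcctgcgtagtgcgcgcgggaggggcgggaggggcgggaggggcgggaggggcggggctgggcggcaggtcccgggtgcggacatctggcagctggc
MVD holds 3 matches, HMGCS1 2 and LSS 1, and the changes of these genes are those given above.

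Of the 15 tested genes that sense and import sterols, 3 were called lower and none higher without DMSO 3, beside 9.17% of all genes higher and 10.9% lower. The median was −0.14, and edgeR called 0 with all libraries (4 at an unadjusted p under 0.05, 1 by DESeq2). Over all genes, edgeR with all libraries called 0.127%, and 2074 of 13401 had an unadjusted p under 0.05. DESeq2 called 1.57% higher and 1.39% lower. The same shares of all genes apply to the lists below. INSIG1, which holds the SREBP escort protein in the endoplasmic reticulum and is itself an SREBP target, had 50.4, 48.5 and 48.7 CPM in dTAG47 and 71.6, 59.8 and 67.2 CPM in DMSO. DMSO 3 lay between DMSO 1 and 2, and the log2 change was −0.43 ± 0.08 without it (adjusted p = 0.000877) and −0.43 ± 0.08 with it (adjusted p = 0.0534). NPC2, which carries cholesterol out of lysosomes, was called lower with a log2 change of −0.36, and DMSO 3 lay inside its treated range.

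Of 16 genes of fatty acid synthesis, which SREBP1 drives, 2 were called higher and 1 lower without DMSO 3, with a median of −0.02. These shares are near those of all genes (9.17% higher and 10.9% lower). ACSS2, which makes acetyl-CoA from acetate, had 68.7, 63.01 and 62.4 CPM in dTAG47 and 107, 88.4 and 77.6 CPM in DMSO (log2 change −0.60 ± 0.08, adjusted p = 0.000119; with DMSO 3 −0.49 ± 0.11, adjusted p = 0.080). The groups did not overlap for ACSS2. ACACA, acetyl-CoA carboxylase, and ELOVL5, an elongase, were called higher without DMSO 3 (log2 changes 0.22 and 0.24), with DMSO 3 inside the treated range for ACACA and above it for ELOVL5. Among 8 tested targets of the sterol receptor LXR, ABCA1, the cholesterol exporter, was called higher and APOE, a lipoprotein component, lower without DMSO 3 (log2 changes 0.49 and −0.44). DMSO 3 lay above or inside the treated range for them, and neither was called with it (adjusted p = 0.567 and 0.276).

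The genes of native FK506-binding proteins, of cereblon and of its ligase were examined next. FKBP1A, which encodes FKBP12, had 213, 205 and 198 CPM in dTAG47 and 231, 220.4 and 187 CPM in DMSO, with log2 changes of −0.05 ± 0.08 in all libraries and −0.15 ± 0.06 without DMSO 3, neither called. CRBN, cereblon, had 19.7, 18.4 and 21.5 CPM in dTAG47 and 24.1, 24.1 and 30.1 CPM in DMSO. All treated libraries lay below all DMSO libraries, DMSO 3 being the highest, and CRBN was called lower without DMSO 3 (log2 change −0.29 ± 0.08, adjusted p = 0.0146) but was not called with it (−0.40 ± 0.10, adjusted p = 0.125). CRBN overlaps TRNT1.

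Cereblon ligands can send a set of proteins to the ligase, many but not all of them zinc-finger proteins. Of the 9 tested genes for proteins of this set, 3 were called higher without DMSO 3, beside 9.17% of all genes. ZNF692 had 22.4, 23.5 and 24.2 CPM in dTAG47 and 17.8, 15.4 and 13.6 CPM in DMSO (log2 change 0.48 ± 0.09, adjusted p = 0.000868; with DMSO 3 0.58 ± 0.10, adjusted p = 0.0509). SALL4, a developmental transcription factor, had 325, 330.4 and 323 CPM in dTAG47 and 251, 265 and 226 CPM in DMSO (log2 change 0.33 ± 0.06, adjusted p = 0.0015; with DMSO 3 0.40 ± 0.07, adjusted p = 0.0509). For both, DMSO 3 was the DMSO library farthest from dTAG47. ZFP91 had 46.3, 54.5 and 57.7 CPM in dTAG47 and 35.7, 40.5 and 63.3 CPM in DMSO, with DMSO 3 above the treated libraries, and rose by 0.46 without it (adjusted p = 0.606 with it). Of the 25 tested genes of FK506-binding proteins, the ligase and proteins sent to it, 6 were higher and 3 lower without DMSO 3. Over all genes the shares were 9.17% higher and 10.9% lower. The median was −0.02. With all libraries edgeR called 0 (8 at an unadjusted p under 0.05, beside 2074 of all 13401 genes). DESeq2 called 3. These are transcript levels, and protein was not measured here.

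Of 31 proteasome subunits, 12 were called lower and 0 higher without DMSO 3, beside 9.17% of all genes higher and 10.9% lower. Among them were 8 of the 14 core subunits, and the median was −0.15. With all libraries the median was −0.13, and edgeR called 0 (6 at an unadjusted p under 0.05, beside 2074 of all 13401 genes). DESeq2 called 2. PSMC6, an ATPase of the cap, had 82.6, 86.4 and 90.8 CPM in dTAG47 and 119, 108 and 135 CPM in DMSO (log2 change −0.40 ± 0.07, adjusted p = 0.000569; with DMSO 3 −0.48 ± 0.09, adjusted p = 0.0509). PSMA3, a core subunit, had 97.2, 103 and 98.1 CPM in dTAG47 and 139.7, 122 and 137 CPM in DMSO (log2 change −0.41 ± 0.07, adjusted p = 0.000673). In both, all 3 DMSO libraries lay above dTAG47. PSMB3 was called lower without DMSO 3 (log2 change −0.49), which itself lay among the treated libraries at 227 CPM.

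Of 32 tested immediate early and MAPK feedback genes, DUSP6 was the 1 call with all libraries, beside 0.127% of all genes. In that fit 10 had an unadjusted p under 0.05, beside 2074 of all 13401 genes. The median was 0.14, and 4 had a negative log2 change, beside 59.1% of all genes. Without DMSO 3, 7 were called higher and 3 lower, beside 9.17% of all genes higher and 10.9% lower, and 9 were negative, beside 52.3% (median 0.07). DMSO 3 lay a median of 0.24 (log2) below DMSO 1 and 2 over this list. SPRED2, a RAS pathway inhibitor, had 86.2, 85.3 and 88.7 CPM in dTAG47 and 64.1, 71.7 and 57.9 CPM in DMSO (log2 change 0.34 ± 0.07, adjusted p = 0.00151; with DMSO 3 0.42 ± 0.08, adjusted p = 0.0532). FOSL2, an AP-1 subunit, had 83.5, 82.1 and 84.5 CPM in dTAG47 and 61.7, 67.9 and 58.8 CPM in DMSO (log2 change 0.35 ± 0.07, adjusted p = 0.00144). The groups did not overlap for either.

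Of 29 p53 targets, CCNG1 was the call with all libraries, and 3 were higher and 3 lower without DMSO 3, near the shares of all genes (9.17% and 10.9%). FDXR, ferredoxin reductase, was called lower and EDA2R, a TNF receptor family member, higher without DMSO 3 (log2 changes −0.35 and 0.34), with DMSO 3 inside the treated range for FDXR and above it for EDA2R.

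Interferon response genes were examined beside the rise of TMEM173. ISG15, a ubiquitin-like interferon product, had 132, 128 and 117 CPM in dTAG47 and 219.7, 152 and 128 CPM in DMSO, and IFI6 26.6, 24.5 and 21.9 CPM in dTAG47 and 39.1, 29.97 and 20.8 CPM in DMSO. Both were called lower without DMSO 3 (log2 changes −0.58 ± 0.11 and −0.50 ± 0.10, adjusted p = 0.00111 and 0.00168) and not with it (adjusted p = 0.253 and 0.412). DMSO 1 was the high library for both, and DMSO 3 lay inside the treated range for ISG15 and below it for IFI6. Of the 24 tested STING and interferon genes, 3 were higher and 5 lower without DMSO 3, beside 9.17% of all genes higher and 10.9% lower, with a median of −0.10. The 3 higher ones were TMEM173, IFIT2 and IFITM1.

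Without DMSO 3, 7 of 21 integrated stress response genes were lower and 0 higher, beside 9.17% of all genes higher and 10.9% lower. Their median was −0.10, and −0.028 after the GC and length offsets, where 6 were lower and 1 higher. Over all 13521 genes those offsets gave 1746 lower and 1088 higher. Among the 7 were TRIB3 at −0.44, DDIT4 at −0.37 and PHGDH, of serine synthesis, at −0.31. Of 20 heat shock and unfolded protein genes 5 were lower, SDF2L1 and XBP1 among them at −0.44 and −0.34, and EDEM1 was higher at 0.43. Of 16 NRF2 and xenobiotic genes 3 were lower, a share not far from that of all genes, namely OSGIN1, NQO1 and KEAP1, with log2 changes of −0.30 to −0.18. For all 9 genes named here DMSO 3 lay inside the treated range or beyond it. With all libraries edgeR called 0 in these 3 lists. At an unadjusted p under 0.05 there were 2, 5 and 0, beside 2074 of all 13401 genes. DESeq2 called 0, 1 and 0.

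**Figure D5:**
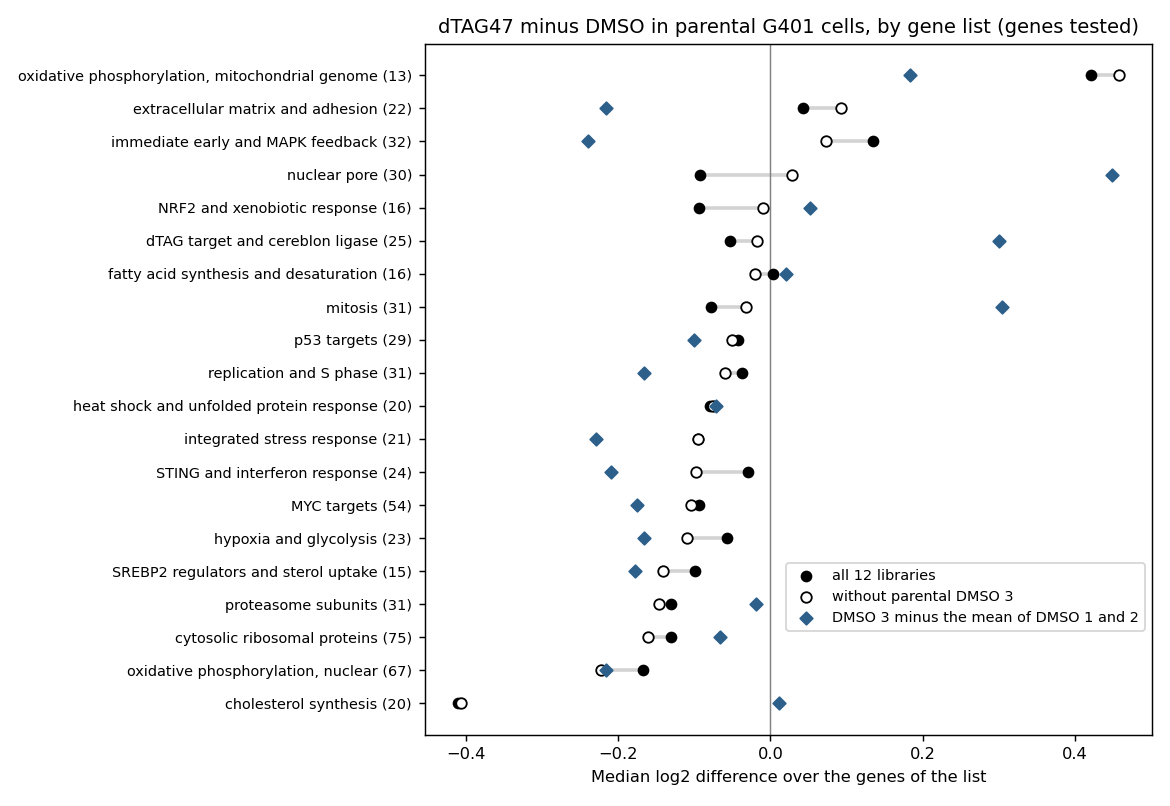
Each row is a gene list with the number of genes tested, and the x axis is the median log2 difference over its genes: dTAG47 minus DMSO with all libraries (filled), the same without DMSO 3 (open), and DMSO 3 minus the mean of DMSO 1 and 2 (blue diamonds). Cholesterol synthesis lies at −0.41 with both circles together and its diamond near 0, while genes of the mitochondrial genome lie at 0.42 and 0.46. The cholesterol diamond is a median over stretches of the pathway that differ. From acetyl-CoA to cholesterol their medians for DMSO 3 were 0.65, −0.23, −0.24 and 0.11.

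Of 67 nuclear genes of the respiratory chain, 57 had a negative log2 change in each fit, beside 59.1% of all genes with DMSO 3 and 52.3% without it. The median was −0.17 with all libraries and −0.22 without DMSO 3, where 35 were lower and 0 higher, beside 9.17% of all genes higher and 10.9% lower. With all libraries edgeR called 0 of them (14 at an unadjusted p under 0.05, beside 2074 of all 13401 genes). DESeq2 called 1. DMSO 3 itself lay a median of 0.22 (log2) below DMSO 1 and 2 over this list. NDUFB7, of complex I, had 79.9, 83.00 and 80.3 CPM in dTAG47 and 105, 107 and 88.3 CPM in DMSO (log2 change −0.40 ± 0.07, adjusted p = 0.00101; with DMSO 3 −0.31 ± 0.10, adjusted p = 0.18). DMSO 3 was its lowest DMSO library and still above dTAG47.

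The 13 genes of the mitochondrial genome had positive medians, 0.42 with all libraries and 0.46 without DMSO 3. MT-CO1 had 14691, 13253 and 15282 CPM in dTAG47 and 8526, 13745 and 11314 CPM in DMSO, and MT-ND5 921, 1023 and 1338 CPM in dTAG47 and 558, 1009 and 683 CPM in DMSO. DMSO 1 was the low library, and DMSO 2 lay among the treated ones, so that the groups overlapped for MT-CO1 and MT-ND5. Without DMSO 3, 4 of the 13 were called higher with TMM (beside 9.17% of all genes), 0 with RLE factors and 7 with upper-quartile factors. With all libraries edgeR called 0 (3 at an unadjusted p under 0.05, beside 2074 of all 13401 genes). DESeq2 called 0. Without DMSO 1 the median with the other libraries was 0.19. The genes took 3.14% to 3.74% of counts in dTAG47 and 1.73% to 3.27% in DMSO.

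Of 75 cytosolic ribosomal protein genes, 27 were called lower and 0 higher without DMSO 3, beside 9.17% of all genes higher and 10.9% lower, at a median of −0.16. With all libraries the median was −0.13 and edgeR called 0 (19 at an unadjusted p under 0.05, beside 2074 of all 13401 genes). DESeq2 called 4. RPS3A had 655, 702 and 665 CPM in dTAG47 and 1109, 827 and 953 CPM in DMSO (log2 change −0.53 ± 0.08, adjusted p = 0.000412; with DMSO 3 −0.51 ± 0.09, adjusted p = 0.0509). RPL15 and RPLP1 had log2 changes of −0.42 and −0.44 without DMSO 3, which lay inside the treated range for RPL15 and below it for RPLP1. Ribosomal protein genes have many near-identical processed copies, and how shared reads were counted is not given.

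Of 30 nuclear pore genes, POM121C was the 1 call with all libraries, and without DMSO 3 6 were higher and 4 lower, beside 9.17% of all genes higher and 10.9% lower. DMSO 3 lay a median of 0.45 (log2) above DMSO 1 and 2 over this list. NUP205 had 162, 206 and 226 CPM in dTAG47 and 156, 155 and 292 CPM in DMSO, and NUP153 91.8, 109.7 and 123 CPM in dTAG47 and 81.03, 88.6 and 164 CPM in DMSO. In each DMSO 3 was the highest library. Their log2 changes were 0.33 ± 0.09 and 0.34 ± 0.08 without DMSO 3 (adjusted p = 0.0111 and 0.00844) and −0.02 and −0.04 with it, a change of sign. MKI67, the proliferation antigen Ki-67, had 165, 223 and 265 CPM in dTAG47 and 130.3, 169.8 and 412 CPM in DMSO. It had a log2 change of 0.52 ± 0.13 without DMSO 3 and −0.13 ± 0.32 with it, and BUB1B, of the spindle checkpoint, changed sign in the same way (0.38 without and −0.08 with DMSO 3). Of 31 mitotic genes 4 were higher and 3 lower without DMSO 3, near these shares.

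MYC had no detectable change of its transcript, at 242, 226 and 237 CPM in dTAG47 and 215, 267 and 223 CPM in DMSO (95% interval of the log2 change −0.18 to 0.18, adjusted p = 0.997). Of 54 tested MYC targets of ribosome biogenesis and growth, 3 were higher and 10 lower without DMSO 3, with a median of −0.10. Over all genes 9.17% were higher and 10.9% lower. With all libraries edgeR called 0 (8 at an unadjusted p under 0.05, beside 2074 of all 13401 genes). DESeq2 called 1. FBL, fibrillarin, was called lower and NOLC1, a nucleolar chaperone, and CCND2, cyclin D2, higher without DMSO 3 (log2 changes −0.33, 0.37 and 0.35), and none of them was called with it. Of 31 replication genes 1 was higher (MCM10) and 1 lower (GINS2) in the same fit, and of 23 hypoxia and glycolysis genes 1 was higher and 3 lower. THBS1, a matrix glycoprotein, had 76.3, 83.1 and 88.9 CPM in dTAG47 and 48.5, 55.6 and 66.2 CPM in DMSO (log2 change 0.65 ± 0.09, adjusted p = 0.000249; with DMSO 3 0.54 ± 0.15, adjusted p = 0.138). It was 1 of 5 matrix genes of 24 called higher without DMSO 3, beside 1 lower, against the 9.17% and 10.9% of all genes. LAMC1, a laminin chain, and COL5A2, a collagen chain, had log2 changes of 0.24 and 0.29.

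Markers of the line were present in both groups. KRT8, a simple epithelial keratin, had 3785, 3613 and 3542 CPM in dTAG47 and 4684, 5003 and 4225 CPM in DMSO, without overlap (log2 change −0.42 ± 0.07, adjusted p = 0.000569; with DMSO 3 −0.35 ± 0.08, adjusted p = 0.0878). SMARCA4, an ATPase of SWI/SNF, had 839.9, 792 and 897 CPM in dTAG47 and 625, 762 and 617 CPM in DMSO (log2 change 0.27 ± 0.08, adjusted p = 0.0195; with DMSO 3 0.34 ± 0.09, adjusted p = 0.121), while SMARCA2, the alternative ATPase, stayed below 1 CPM in all 6 libraries. KRT8 overlaps KRT18. SMARCB1, whose loss defines rhabdoid tumours, was not analysed here. Of 8 haematopoietic markers with an entry, all were below 1 CPM in all 6 libraries, and their summed level was 0.705 to 0.779 CPM in dTAG47 and 0.697 to 1.01 CPM in DMSO. Of 12 kidney epithelial markers 9 were below 1 CPM throughout, and PAX2 made up most of a sum of 48.5 to 51.98 CPM in dTAG47 and 33.98 to 47.5 CPM in DMSO. Of 9 neuronal markers 8 were below 1 CPM throughout. The fibroblast and endothelial sum, nearly all of it COL1A1 and PDGFRB, which these cells express, was 959 to 1006 CPM in dTAG47 and 569 to 1202 CPM in DMSO, lowest in DMSO 3, and 6 of its 9 markers were below 1 CPM throughout with LUM at 0. Their part in the results was not tested.

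The last comparison asks whether the response of parental cells is also seen in DTMYC cells, where MYC carries the tag that the compound binds. DTMYC cells had 572 genes higher (4.27%) and 595 lower (4.44%) in dTAG47 with all libraries. Of the 17 genes called in parental cells, 15 had the same sign in DTMYC cells and 5 were called there, beside 8.71% of all genes, all in the same direction. The 5 were METAP1D, TMEM173, FDFT1, CIT and PRKCA. The interaction test, DTMYC response minus parental response, called 4 of the 17 with all libraries, beside 1.19% of all genes, and 14 without parental DMSO 3, beside 17.9%. The 4 were POM121C, SHISA3, TMEM173 and ATP11A. The 17 were picked by their parental response, which is part of this difference. The shares of all genes are therefore not a like comparison for them.

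PRKCA rose in both lines, with log2 changes of 0.47 ± 0.07 in DTMYC cells and 0.40 ± 0.07 in parental cells and a difference, DTMYC minus parental, of 0.07 ± 0.10 (95% interval −0.13 to 0.28). METAP1D rose by 0.36 in DTMYC cells (adjusted p = 0.00842) and CIT by 0.27 (adjusted p = 0.0308). TMEM173 rose more in DTMYC cells, at 3.14, 3.21 and 3.37 CPM in dTAG47 and 1.18, 1.03 and 0.918 CPM in DMSO (log2 change 1.63 ± 0.13, difference 0.90 ± 0.17, adjusted p = 0.0351). POM121C, in contrast, had 11.9, 16.5 and 16.2 CPM in dTAG47 and 19.2, 17.3 and 20.4 CPM in DMSO of DTMYC cells, without a call (log2 change −0.35 ± 0.12, difference −1.33 ± 0.17, adjusted p = 0.00828).

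Cholesterol genes in DTMYC cells had a median log2 change of −0.11, against −0.41 in parental cells. With all libraries, 4 of 20 were called lower in DTMYC cells, FDFT1, SQLE and DHCR7 among them, and TM7SF2 was called higher. Over all genes 4.44% were lower and 4.27% higher in DTMYC cells. In parental cells 1 of the 20 was called lower. The difference between the responses was called for 9 of 20 without parental DMSO 3 and for 2 with all libraries, ACAT2 and TM7SF2, each time higher in DTMYC, beside 8.3% and 0.597% of all genes. The list was chosen with its parental fall known, and that fall is part of this difference. These shares are therefore not a like comparison either. ACAT2 had 101, 104 and 104 CPM in dTAG47 and 90.7, 89.6 and 93.9 CPM in DMSO of DTMYC cells (log2 change 0.17 ± 0.09, difference 0.71 ± 0.13, adjusted p = 0.0351). TM7SF2 had 19.6, 17.7 and 17.2 CPM in dTAG47 and 11.6, 10.8 and 11.8 CPM in DMSO of DTMYC cells (log2 change 0.67 ± 0.10, difference 1.07 ± 0.14, adjusted p = 0.00828). FDFT1 fell in both lines, with log2 changes of −0.31 in DTMYC cells and −0.50 in parental cells. INSIG1 was called lower in DTMYC cells, with −0.38 (adjusted p = 0.0178).

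MYC targets were lower mainly in DTMYC cells. In DTMYC cells 37 of 54 were called lower and 0 higher, beside 4.44% and 4.27% of all genes. Their median was −0.42 there, against a median of −0.09 and 0 calls in parental cells with all libraries. The difference was called lower for 38 of 54 without parental DMSO 3 and for 11 with it, beside 9.58% and 0.59% of all genes, and for none higher. With all libraries NOLC1 had log2 changes of −0.48 ± 0.13 in DTMYC cells (edgeR adjusted p = 0.0388) and 0.19 ± 0.13 in parental cells. In the other fit, without parental DMSO 3, its difference was −0.89 ± 0.10 (edgeR adjusted p = 2.82e-05). That difference is therefore not the one between the changes just given. Over all 13401 genes the log2 changes of the 2 lines had a Pearson r of 0.0434 with all libraries and 0.108 without parental DMSO 3 (13521 genes), across genes, which are not independent replicates.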

How the data were processed

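RNA was depleted of ribosomal RNA and sequenced, per the labels' protocols. The authors deposited whole-number read counts per protein-coding gene and a gene length column. The submitters' processing notes name hg19, STAR, featureCounts and DESeq2 among the tools, and versions, parameters and strand setting are not stated there. The 12 RNA-seq libraries were fitted together with edgeR 4.0.16 (R 4.3.3; filterByExpr by group, TMM factors, quasi-likelihood F-test, Benjamini-Hochberg adjustment, threshold 0.05), with and without parental DMSO library 3. Standard errors are the log2 change over the root of F. CPM used effective library sizes, and log2 CPM used a prior count of 2. Counts ranged from 27854207 to 54633745 per library. Alternatives were RLE and upper-quartile factors, DESeq2 1.42.0, voom in limma 3.58.1, no filter, a replicate block, GC and length offsets (splines of 5 degrees of freedom), and leaving out each library. Combinations with DMSO 3 left out were added after seeing the data. The fits were tested on simulated data. Of the 18132 entries, 94.7% had a GC value.

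Genes were named by rule: all called with 12 libraries, the 8 largest rises and falls without DMSO 3 (at least 5 CPM, no overlap), the cholesterol list, up to 3 genes per other list, and MYC, FKBP1A, CRBN, SMARCB1 and SMARCA4. Others, such as POM121, IFIT2 and IFITM1, were named after their values were seen. Some list members are counted but not reported by name here. The samples and lists were chosen with earlier results of these data known.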

Additional observations from a re-analysis of the deposited data

Results flagged for a closer look

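For 4 of the genes called in parental cells and 2 cholesterol synthesis genes, the response in DTMYC cells differed from that in parental cells by the interaction test of edgeR with Benjamini-Hochberg adjustment over all genes. The differences below are DTMYC minus parental, on the log2 scale, with all 12 libraries. TM7SF2 differed by 1.07, ACAT2 by 0.71 and TMEM173 by 0.90. POM121C differed by −1.33, SHISA3 by −0.55 and ATP11A by −0.46. These genes were picked or listed with their parental response known, and that response is part of the difference. Groups of 3 libraries are too small for the test of outlying single values used on larger groups, and parental DMSO library 3 is described in the report.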

How the results depend on the processing

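The number of genes called in parental cells, 17 with all 12 libraries, moved under nearly every alternative. Leaving out 1 library gave 0 to 2718. The 6 parental libraries alone gave 0, the same without DMSO 3 gave 1886, RLE factors gave 7, upper-quartile factors 37, DESeq2 315, voom with sample quality weights 1790, a replicate block 27, GC and length offsets 880, and both together 1248. Without a filter on low counts the number was 14. Without DMSO 3, where 2718 were called, leaving out 1 more library gave 733 to 3116. The 1167 genes called in DTMYC cells became 3951 without parental DMSO 3 and 6217 with voom. The 159 genes of the difference became 2417 without parental DMSO 3, 63 with RLE factors, 58 with upper-quartile factors, 102 without a filter, 544 with DESeq2, 2936 with voom and 263 with a replicate block. The share of cholesterol promoters with CCAAT was 70.6% on either strand and 35.3% on the strand of the gene. Whether replicate numbers pair the parental libraries was not settled. Deviations of parental libraries with the same number had r = 0.32, 0.05 and 0.37. With different numbers r was 0.24 and −0.37 for dTAG47 1, 0.03 and −0.05 for dTAG47 2, and −0.31 and −0.25 for dTAG47 3. Each dTAG47 library thus had its highest r with the DMSO library of its number, though DMSO 2 had its highest with dTAG47 1. In DTMYC cells the same-number r was 0.08, −0.01 and −0.05. The replicate block lowered the fitted biological coefficient of variation from 0.121 to 0.0948. With the replicate block, 14 genes were higher and 13 lower.

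The log2 change took the opposite sign when 1 of the libraries was left out for the following genes, given with the lowest and highest value over the 6 such fits: ZBTB43 (−0.093 to 0.74), ELOVL5 (−0.078 to 0.24), EDA2R (−0.0084 to 0.34), NQO1 (−0.19 to 0.0052), NUP153 (−0.22 to 0.34), NUP205 (−0.18 to 0.33), MCM10 (−0.24 to 0.29), MKI67 (−0.42 to 0.52), BUB1B (−0.30 to 0.38), ALDOA (−0.20 to 0.023), SYN1 (−0.12 to 0.41), PDGFRA (−0.053 to 0.35), MYC (−0.060 to 0.10) and FKBP1A (−0.15 to 0.010). In the 6 parental libraries alone and without DMSO 3 it did so for LBR (0.0040), NUP153 (0.35), NUP205 (0.34), MCM10 (0.30), MKI67 (0.53), BUB1B (0.39), SYN1 (−0.10) and MYC (−0.038). With RLE factors it did so for MYC (−0.0021), with upper-quartile factors for NUP153 (0.012) and NUP205 (0.025), and with DESeq2 for MYC (−0.0036). With voom and sample quality weights it did so for LBR (0.018), NUP153 (0.31), NUP205 (0.34), MCM10 (0.31), MKI67 (0.46), BUB1B (0.35), SYN1 (−0.16), GAP43 (−0.012) and MYC (−0.089). With a replicate block it did so for NUP153 (0.027), NUP205 (0.029), MKI67 (0.033) and BUB1B (0.011). With GC and length offsets it did so for ACACA (−0.051) and MYC (−0.069). With these offsets and a replicate block it did so for ACACA (−0.049), MCM10 (0.0039), BUB1B (0.039) and MYC (−0.064). The causes of these changes were not tested. Of the values for single genes under all alternatives, 1271 kept direction and call, 360 gained a call, 103 lost one and 58 changed sign, and of the list medians 378 moved by less than the spread between replicates and 38 by more. The simulated data gave every library the same spread. How small a change the 12-library fit can detect in these libraries, where DMSO 3 stands apart, was not measured.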
